A study of Mus musculus with 27 samples.

Results

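Fibroblast growth factors (FGFs) and their receptors are described here across mouse embryonic fibroblasts (MEFs), pre-iPSCs and iPSCs. The 10 genes are 6 ligands (Fgf2, Fgf4, Fgf5, Fgf7, Fgf10 and Fgf15) and the 4 receptors Fgfr1, Fgfr2, Fgfr3 and Fgfr4, taken by gene symbol from the 20156 RefSeq genes of the expression tables. RNA was sequenced in 6 libraries, 2 per cell type, and nucleosomes carrying H3, H3K4me3 (a mark of active promoters), H3K27me3 (the Polycomb mark) or H3K9me3 (a heterochromatin mark) in 21 libraries. H3, H3K4me3 and H3K27me3 have 2 libraries per cell type and H3K9me3 has 1. MEFs came from E13.5 embryos hemizygous for an Oct4-GFP transgenic allele and for a Rosa26 allele, with CBA/CaJ and C57BL/6J given as the background of the first chromatin set and 129Sv/Jae mothers in the study's methods. Pre-iPSCs, an intermediate stage of reprogramming, and iPSCs were induced from such MEFs by retroviral delivery of c-Myc, Klf4, Oct4 and Sox2, so the 3 groups share the Oct4-GFP and Rosa26 alleles. The study used 2 stable pre-iPSC clones and the iPSCs that correspond to them, and the sources used here do not say which clone gave which library. Both were grown with LIF and serum on feeder layers of MEFs inactivated with mitomycin C, for 6 passages before RNA sequencing.

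FGFs are secreted proteins that bind heparan sulfate and receptor tyrosine kinases on the cell surface. Receptor binding leads through the adaptor Frs2 to the Ras and MAP kinase cascade, whose output includes the Sprouty and Dusp inhibitors that dampen it. Fgf4 is the autocrine ligand of embryonic stem cells and is needed for their exit from self-renewal. Fgf7 and Fgf10 are made by mesenchyme and signal to epithelium through Fgfr2.

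The depth and the identity of the libraries bear on every value below. The calls held 67362868 to 108211816 reads per H3 library, 12007350 to 13146349 for H3K4me3, 13224775 to 15222040 for H3K27me3 and 12222861 to 12942154 for H3K9me3. The RNA tables give FPKM (fragments scaled to transcript length and to the size of the library) without counts, and the value of 1 fragment on short olfactory receptor genes corresponded to libraries of 8480000 to 11800000 fragments. Of 12 fibroblast marker genes all reached 1 FPKM in every library, and their summed level was 6036 and 4887 FPKM for MEFs, 349 to 556 for pre-iPSCs and 299 to 354 for iPSCs. Of 12 pluripotency genes all reached 1 FPKM in both iPSC libraries, 6 and 5 did so in pre-iPSCs and 0 in MEFs. Nanog was at 0.52 and 0 FPKM in pre-iPSCs and at 49.5 and 73.6 FPKM in iPSCs. FPKM of Pou5f1 (378 and 3184 in pre-iPSCs) do not separate the retroviral from the endogenous transcript. In 2 H3 libraries the promoters stood apart from the rest: the median promoter had 0.550 RPKM in the first pre-iPSC replicate and 0.408 in the first iPSC replicate, against 0.204 to 0.238 in the other 4. MEFs were digested with another amount of MNase and for another time than the reprogrammed cells, and that difference cannot be told apart from the cell type.

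Pairs of values list replicate 1 first and replicate 2 second, and means carry their SD (n = 2). RPKM of a mark are the reads of nucleosome calls centred within 1000 bp of the transcription start site (TSS), scaled to the window's length and to the unique reads of the library. RNA differences are on the log2(FPKM + 1) scale with their SE, from limma, and counted as changed when the adjusted p was below 0.05 and the change at least 2-fold. Reads of marks were compared with edgeR's quasi-likelihood test and called at an adjusted p below 0.05. All p-values were adjusted over every gene or promoter tested, and they measure only the spread between these libraries. With 2 libraries against 2, an exact permutation test of a single value could not pass 0.05. A fit with 1 library left out keeps 1 library in that group, so its adjusted p holds no spread of that group. With fewer libraries a call can also be lost while its size holds.

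The members lie on 6 chromosomes, and 2 of them are neighbours: Fgf15 (chr7:152082437-152086856, + strand, mm9) starts 31.3 kb past the end of Fgf4 (chr7:152047291-152051148, + strand). Fgf7 is at chr2:125860394-125916921 (+) and Fgfr2 at chr7:137305965-137410322 (-). These 4 are the members whose RNA changed between cell types. Their mm9 promoter sequences are shown from 250 bases before the TSS to 50 bases from it on the gene's strand, with every CpG in capitals, because the promoters differ in CpG content and CpG-rich promoters are where H3K4me3 and H3K27me3 are usually found. They span chr7:152047041-152047340 for Fgf4, chr7:152082187-152082486 for Fgf15, chr2:125860144-125860443 for Fgf7 and chr7:137410273-137410572 for Fgfr2.
Fgf4: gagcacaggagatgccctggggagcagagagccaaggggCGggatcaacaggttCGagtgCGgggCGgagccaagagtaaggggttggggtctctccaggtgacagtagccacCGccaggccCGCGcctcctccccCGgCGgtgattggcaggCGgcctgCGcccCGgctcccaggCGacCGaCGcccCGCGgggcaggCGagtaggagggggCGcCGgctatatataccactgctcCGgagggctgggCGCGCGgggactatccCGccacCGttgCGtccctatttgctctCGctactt
Fgf15: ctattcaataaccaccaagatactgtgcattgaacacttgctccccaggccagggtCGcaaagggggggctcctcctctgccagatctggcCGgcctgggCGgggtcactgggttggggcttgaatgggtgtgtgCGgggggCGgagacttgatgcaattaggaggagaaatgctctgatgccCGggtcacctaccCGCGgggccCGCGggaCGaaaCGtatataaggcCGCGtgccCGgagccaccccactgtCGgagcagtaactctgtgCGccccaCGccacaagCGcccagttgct
Fgf7: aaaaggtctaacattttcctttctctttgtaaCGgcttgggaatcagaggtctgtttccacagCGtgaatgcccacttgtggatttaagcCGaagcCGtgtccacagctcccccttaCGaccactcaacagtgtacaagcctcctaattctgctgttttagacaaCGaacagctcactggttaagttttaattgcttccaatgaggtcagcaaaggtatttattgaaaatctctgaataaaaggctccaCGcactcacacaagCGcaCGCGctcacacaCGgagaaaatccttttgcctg
Fgfr2: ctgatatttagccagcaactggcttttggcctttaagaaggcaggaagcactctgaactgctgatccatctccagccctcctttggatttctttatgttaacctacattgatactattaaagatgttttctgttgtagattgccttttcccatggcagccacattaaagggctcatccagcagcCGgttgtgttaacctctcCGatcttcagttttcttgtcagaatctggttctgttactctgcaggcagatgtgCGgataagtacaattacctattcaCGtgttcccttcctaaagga
The Fgf4 stretch holds 28 CpGs, that of Fgf15 19, that of Fgf7 11 and that of Fgfr2 4. In the wider window of 1000 bp on either side of the TSS Fgf7 had the fewest CpGs of the 10 members, 31, at the 29.0th percentile of all 20156 promoters. Fgfr1 had the most, 149, at the 93.1st percentile. The other 8 held 72 to 122 against a median promoter of 66. Fgfr2 had 103 in that window but 37 within 500 bp, where the median promoter had 47. The GC box GGGCGG was found on either strand in the 300-base stretch of 8 of the 10 members (not Fgf7 or Fgfr2), and 49.1% of all promoters hold it. CCAAT was found in Fgf4, Fgf7 and Fgfr3 (38.1% of all promoters). TATAAA was found in Fgf5 alone among the members (12.7% of all promoters), with its first base at +35, after the TSS. The octamer ATGCAAAT was found in no member (1.7% of all promoters). Only exact matches were counted, so the stretch tatata before the TSS of Fgf4 and of Fgf15 was not.

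Of the 10 members, 6 passed the filter of a mean of 0.5 FPKM and were tested among 12401 genes. In pre-iPSCs against MEFs 1 of the 6 rose (Fgf4) and 2 fell (Fgf7 and Fgfr2), where 16.4% of all tested genes changed (7.39% rose and 9.0% fell). In iPSCs against pre-iPSCs 2 rose (Fgf4 and Fgf15) and none fell, where 8.62% of genes changed (3.91% rose and 4.71% fell). In iPSCs against MEFs 2 rose (Fgf4 and Fgf15) and 1 fell (Fgf7), where 25.9% of genes changed (10.3% rose and 15.5% fell). These shares of all genes moved when 1 library was left out. In iPSCs against pre-iPSCs they ran from 0.706% and 1.46% without replicate 2 and 1 of iPSCs to 17.8% and 18.4% without replicate 1 and 2 of MEFs. In pre-iPSCs against MEFs they ran from 8.65% (without replicate 2 of pre-iPSCs) to 23.5%, and in iPSCs against MEFs from 9.09% and 10.3% (without replicate 1 and 2 of iPSCs) to 30.0%. Fgf2, Fgf5, Fgfr3 and Fgfr4 had means of 0.255 to 0.484 FPKM and were not tested.

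**Figure D1:**
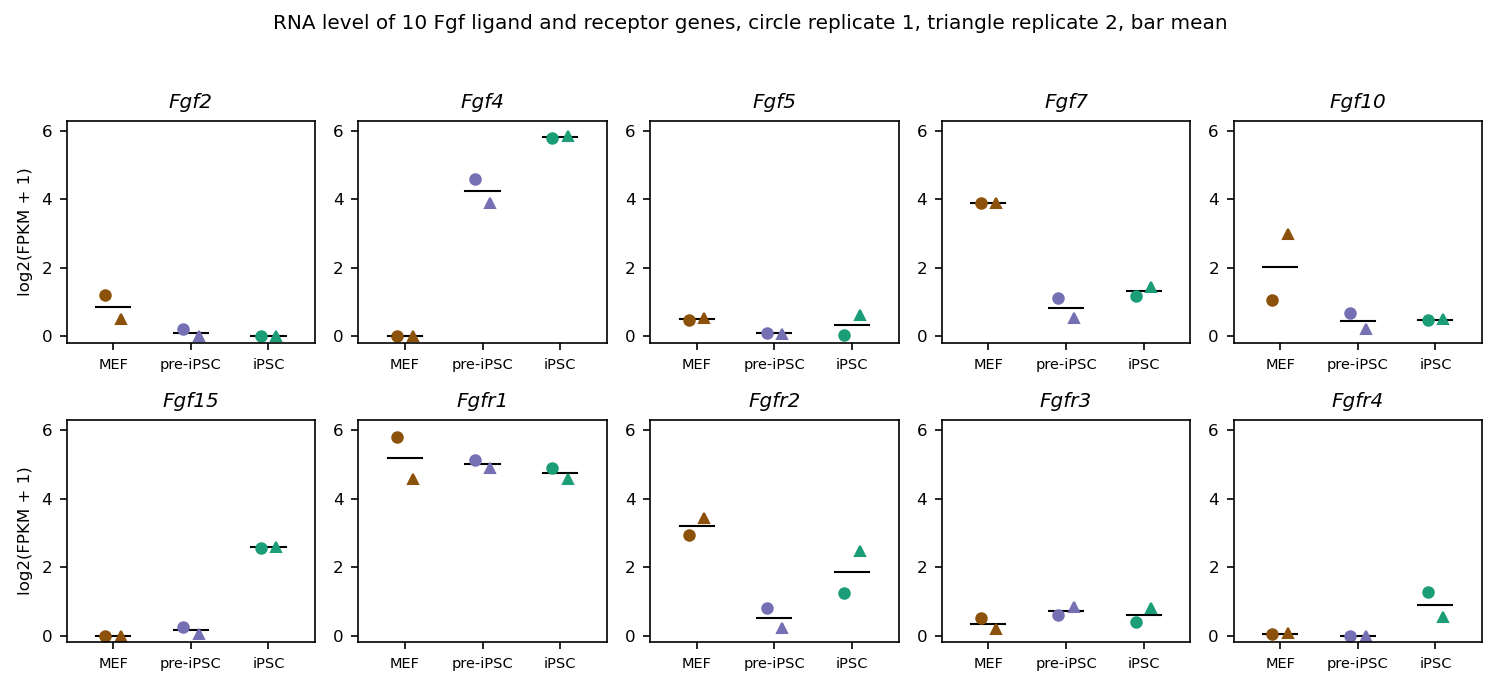
RNA level of each gene as log2(FPKM + 1) in MEFs, pre-iPSCs and iPSCs. Circles are replicate 1, triangles replicate 2 and bars the mean of both. Fgf4 is at 0 in both MEF libraries and highest in iPSCs, Fgf15 is above 1 FPKM in iPSCs only, and Fgfr1 is high in all 6 libraries.

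Fgf4 was listed at 0 FPKM in both MEF libraries, at 23.1 and 13.9 in pre-iPSCs and at 54.8 and 56.3 in iPSCs. The 3 cell types did not overlap, and in iPSCs Fgf4 ranked at the 93.9th and 95.1st percentile of all genes. The level was 18.5 ± 6.53 FPKM in pre-iPSCs and 55.5 ± 1.06 FPKM in iPSCs. The fitted difference was 4.24 ± 0.38 (SE) for pre-iPSCs against MEFs (adjusted p = 0.00119) and 5.82 ± 0.38 for iPSCs against MEFs (adjusted p = 0.000539). Because MEFs were at 0, these sizes depend on the pseudocount (7.49 and 9.12 with 0.1) and are no bound on the fold. The step from pre-iPSCs to iPSCs was 1.58 ± 0.38 (adjusted p = 0.0457). That call was lost without any 1 of the 4 libraries it compares, in fits that leave 1 library in a group. Without replicate 1 or 2 of pre-iPSCs the difference was 1.94 or 1.22, and without replicate 1 or 2 of iPSCs 1.77 or 1.38. The call was also lost with a pseudocount of 0.1 (1.63, adjusted p = 0.0799) and with no filter on low values (adjusted p = 0.0750).

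Fgf15, whose human counterpart is FGF19, is the ileal hormone that represses bile acid synthesis and is also made in the embryonic brain. It was at 0 in both MEF libraries, at 0.187 and 0.0417 FPKM in pre-iPSCs and at 4.93 and 5.03 FPKM in iPSCs. Fragment numbers were estimated for Fgf2, Fgf5, Fgf15 and Fgfr4, the members whose smallest value above 0 was near 1 fragment, from the value of 1 fragment and the annotated transcript length times a factor (0.84 to 1.16) chosen per gene to make low values whole. That choice makes their closeness to whole numbers no separate evidence. On this scale pre-iPSCs held 4 and 1 fragments of Fgf15, and 3.56 and 0.888 at the annotated length. Both iPSC libraries lay far above the other 4. Fgf15 rose by 2.43 ± 0.29 from pre-iPSCs to iPSCs (adjusted p = 0.00408) and by 2.58 ± 0.29 from MEFs to iPSCs (adjusted p = 0.00170, against MEFs at 0). With a pseudocount of 0.1 these sizes were 4.66 and 5.67, so they depend on the pseudocount, and both calls held. Without replicate 1 or 2 of iPSCs the first of these was 2.49 (adjusted p = 0.0510) or 2.37 (adjusted p = 0.0631). Its neighbour Fgf4 was already present in pre-iPSCs, where Fgf15 differed from MEFs by 0.15 ± 0.29 (adjusted p = 0.787). With Fgf15 at or near 0 in both cell types, this size also depends on the pseudocount.

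Fgf7, also called keratinocyte growth factor, had 13.9 and 13.9 FPKM for MEFs, 1.19 and 0.461 for pre-iPSCs and 1.26 and 1.72 for iPSCs. Both MEF libraries were above all others, and pre-iPSCs and iPSCs lay close together. Fgf7 fell by 3.06 ± 0.38 in pre-iPSCs (adjusted p = 0.00324) against MEFs. Its difference in iPSCs was -2.59 ± 0.38 (adjusted p = 0.00402), and both calls held under all 11 alternatives. Between pre-iPSCs and iPSCs the difference was 0.47 ± 0.38 (adjusted p = 0.563). The summed fibroblast markers were also lower in pre-iPSCs and iPSCs than in MEFs, and feeder fibroblasts were present in the pre-iPSC and iPSC cultures. Their part in the residual Fgf7 was not tested, and fewer cells of a type and less RNA per cell cannot be told apart in these bulk samples.

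Fgf10, the second mesenchymal ligand of Fgfr2, had 1.09 and 6.93 FPKM for MEFs, 0.603 and 0.153 for pre-iPSCs and 0.398 and 0.413 for iPSCs. MEFs were above the other types in both libraries but lay far apart from each other. The differences from MEFs of -1.58 ± 0.55 in pre-iPSCs (adjusted p = 0.0985) and -1.53 ± 0.55 in iPSCs (adjusted p = 0.0826) were not called. Without replicate 1 of MEFs they were -2.66 and -2.61, and without replicate 2 of MEFs -0.50 and -0.46. Without replicate 1 of pre-iPSCs they were -2.30 and -1.53, and without replicate 2 of pre-iPSCs the difference of pre-iPSCs was -0.86. With a pseudocount of 0.1 the differences were -2.78 and -2.52 and were not called.

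The other ligands were near the limit of detection. Fgf2, the basic FGF that fibroblasts make and that primed stem cells are cultured with, had 1.31 and 0.428 FPKM in MEFs, 0.151 and 0 in pre-iPSCs and 0 in both iPSC libraries, or an estimated 7, 3, 1, 0, 0 and 0 fragments. Fgf5, a marker of the primed epiblast, had 0.405 and 0.439 FPKM for MEFs, 0.0654 and 0.0583 for pre-iPSCs and 0.0314 and 0.534 for iPSCs, or an estimated 10, 14, 2, 2, 1 and 15 fragments. The iPSC libraries spanned the whole range of Fgf5. Of 6 further epiblast genes 3 (Dnmt3b, Otx2 and Pou3f1) reached 1 FPKM in every pre-iPSC and iPSC library and in neither of MEFs, and T, Foxa2 and Cer1 stayed under it in all 6 libraries.

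Among the receptors Fgfr1 had by far the highest level. It was at 55.1 and 22.6 FPKM for MEFs, 34.0 and 28.9 for pre-iPSCs and 28.9 and 22.9 for iPSCs, between the 84.0th and 93.0th percentile of all genes in every library. The 3 cell types overlapped, and the 2 MEF libraries enclosed all the others. Its differences were -0.17 ± 0.39 in pre-iPSCs against MEFs (adjusted p = 0.826), -0.28 ± 0.39 in iPSCs against pre-iPSCs (adjusted p = 0.768) and -0.45 ± 0.39 in iPSCs against MEFs (adjusted p = 0.439). The 95% interval of the last, -1.36 to 0.47, leaves room for a change of more than 2-fold downward.

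Fgfr2, through which Fgf7 and Fgf10 signal to epithelium, was measured per gene, without separation of splice forms. It had 6.71 and 9.77 FPKM for MEFs, 0.746 and 0.174 for pre-iPSCs and 1.37 and 4.52 for iPSCs. The 3 cell types did not overlap, with pre-iPSCs lowest. Fgfr2 fell by 2.67 ± 0.48 from MEFs to pre-iPSCs (adjusted p = 0.0107). Without replicate 2 of pre-iPSCs this was -1.96 (adjusted p = 0.101), and with no filter on low values adjusted p was 0.0513. With a pseudocount of 0.1 the difference was -4.09 (adjusted p = 0.0118). The later differences of 1.34 ± 0.48 in iPSCs against pre-iPSCs (adjusted p = 0.154) and -1.33 ± 0.48 in iPSCs against MEFs (adjusted p = 0.0807) were not called. With a pseudocount of 0.1 the first was 2.43 (adjusted p = 0.115). Its size rests on single libraries: it was 2.05 (adjusted p = 0.104) and 0.62 (1.0) without replicate 1 and 2 of pre-iPSCs, and 1.97 (0.159) and 0.70 (0.531) without those of iPSCs, while without replicate 1 or 2 of MEFs the same size was called (adjusted p = 0.0269 and 0.0152). The difference of iPSCs from MEFs was -0.70 (adjusted p = 0.413) and -1.97 (0.0835) without replicate 1 and 2 of iPSCs.

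Fgfr3 had 0.422 and 0.134 FPKM for MEFs, 0.516 and 0.765 for pre-iPSCs and 0.324 and 0.742 for iPSCs. Both pre-iPSC libraries were above both MEF libraries, and iPSCs overlapped both groups. Fgfr4, the receptor through which Fgf15 acts in liver, had 0.0317 and 0.0490 FPKM in MEFs, 0 in both pre-iPSC libraries and 1.42 and 0.445 in iPSCs. These values correspond to an estimated 1 and 2 fragments in MEFs and 58 and 16 in iPSCs. Both iPSC libraries were above the other 4. At the filter used its mean of 0.325 FPKM left it out of the test.

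The shape of each tested member over the 6 libraries was compared with that of the 12400 other tested genes by Pearson's r on log2(FPKM + 1), as a description over points that share libraries. Closest to Fgf4 were Bend4 (r = 0.9965), Chd7 and Exoc6, and to Fgf15 Igdcc3 (r = 0.9998), D630023F18Rik and Icosl. Closest to Fgf7 were Irgm1 (r = 0.9968), Col27a1 and Serpinf1, to Fgf10 Iscu (r = 0.993), Col10a1 and Pgrmc2, to Fgfr1 Mlxip (r = 0.9986), Armc5 and D8Ertd82e, and to Fgfr2 Hexa (r = 0.9937), Ebf1 and Ahr. The number of genes with r above 0.99 ranged from 2 for Fgfr1 to 108 for Fgf15.

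Promoter marks were tested in all 10 members. For H3K4me3, 1 member rose (Fgf4) and 1 fell (Fgf7) in pre-iPSCs against MEFs, where 3.85% of 17700 promoters changed (3.05% rose and 0.797% fell). The same 2 members changed in iPSCs against MEFs (13.7% of promoters, 9.74% higher and 4.01% lower). None of the 10 was called in iPSCs against pre-iPSCs, where 0 of 17700 promoters were called, 1581 had an unadjusted p under 0.05 and DESeq2 called 0. A 2000-bp window called 15 of 19119 promoters there, and some fits with 1 library left out also gave calls. For H3K27me3, Fgfr2 rose in pre-iPSCs against MEFs (8.1% of 10407 promoters changed, 5.01% higher and 3.09% lower), and in iPSCs against MEFs Fgfr2 rose and Fgf4 fell (11.2% of promoters, 7.33% higher and 3.88% lower). None of the 10 was called in iPSCs against pre-iPSCs (0.798% of promoters, 0.663% higher and 0.135% lower). Leaving out 1 of the compared libraries also moved these shares. For H3K4me3 in pre-iPSCs against MEFs they were 0.535% without replicate 1 of MEFs and 1.24% and 1.19% without replicate 1 and 2 of pre-iPSCs. The H3K4me3 share for iPSCs against MEFs was 3.27% with MEF replicate 1 left out and 5.34% and 8.73% without replicate 1 and 2 of iPSCs. For H3K27me3 in pre-iPSCs against MEFs they were 3.15% to 4.27% without any 1 of the 4 libraries compared, in iPSCs against MEFs 3.95% to 6.26%, and in iPSCs against pre-iPSCs 0.0757% to 0.388%. DESeq2 called none of the members' marks in any comparison, where against MEFs it called 31 promoters higher and 0 lower for H3K4me3 in pre-iPSCs and 115 and 4 in iPSCs, and 35 and 10 for H3K27me3 in pre-iPSCs and 13 and 6 in iPSCs. H3K4me3 scaled to unique reads alone moved the median promoter by -0.40 in pre-iPSCs and -0.38 in iPSCs and turned the calls from 540 higher and 141 lower to 232 and 1134, and from 1724 and 709 to 842 and 2370. All 4 H3K4me3 calls of the members held under that scaling.

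**Figure D2:**
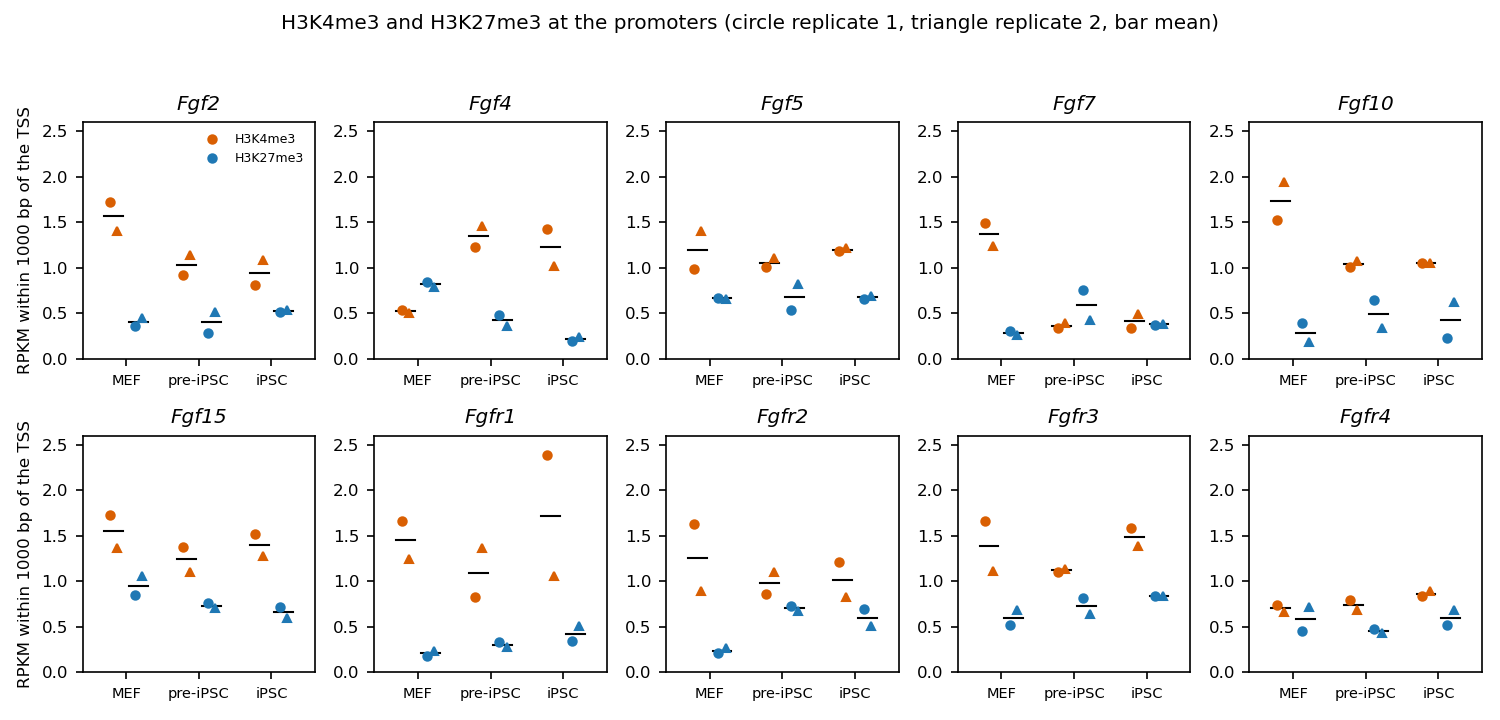
H3K4me3 (orange) and H3K27me3 (blue) in RPKM within 1000 bp of the TSS of each gene, by cell type. Circles are replicate 1, triangles replicate 2 and bars the mean. At Fgf4 H3K4me3 rises above H3K27me3 after MEFs, at Fgf7 H3K4me3 falls, and at Fgfr2 H3K27me3 is higher in the reprogrammed cells.

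At the Fgf4 promoter H3K4me3 was higher and H3K27me3 lower in iPSCs than in MEFs. H3K4me3 had 16 and 16 reads for MEFs, 40 and 45 for pre-iPSCs and 46 and 31 for iPSCs, or 0.526 ± 0.0230, 1.34 ± 0.166 and 1.22 ± 0.288 RPKM. Both MEF libraries were the lowest, at the 32.9th and 33.0th percentile of promoters, and the reprogrammed cells lay between the 67.1st and 94.1st. H3K4me3 was 3.30-fold higher in pre-iPSCs (log2 1.72 ± 0.31, adjusted p = 0.000452) and 2.94-fold higher in iPSCs (log2 1.56 ± 0.31, adjusted p = 0.000870) than in MEFs, and DESeq2 gave adjusted p = 0.0539 and 0.0635. Between pre-iPSCs and iPSCs it differed by -0.17 ± 0.26 (95% interval -0.68 to 0.35), while the RNA of Fgf4 rose at this step.

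H3K27me3 at Fgf4 had 28 and 30 reads for MEFs, 17 and 12 for pre-iPSCs and 7 and 8 for iPSCs, with no overlap between the cell types. MEFs were at the 95.4th and 92.6th percentile of promoters and iPSCs at the 35.7th and 47.9th. The mark was 3.83-fold lower in iPSCs than in MEFs (log2 -1.94 ± 0.40, adjusted p = 0.000440), with adjusted p = 0.107 by DESeq2. With a 500-bp window Fgf4 was not among the 4436 promoters with enough H3K27me3 reads to be tested. The intermediate steps of -0.95 ± 0.35 from MEFs to pre-iPSCs (adjusted p = 0.0757) and -0.99 ± 0.46 from pre-iPSCs to iPSCs (adjusted p = 0.375) were not called. In a window of 2000 bp on either side the first of these was -1.38 (adjusted p = 0.000225). Within 3000 bp on either side of the TSS MEFs had 103 and 101 H3K27me3 reads, pre-iPSCs 36 and 31, and iPSCs 25 and 25.

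At Fgf7 H3K4me3 had 44 and 39 reads for MEFs, 11 and 12 for pre-iPSCs and 11 and 15 for iPSCs, or 1.37 ± 0.175, 0.363 ± 0.0371 and 0.417 ± 0.108 RPKM. Both MEF libraries were above the other 4, which lay between the 18.3rd and 26.8th percentile of promoters. The mark was 2.87-fold lower in pre-iPSCs (log2 -1.52 ± 0.36, adjusted p = 0.00873) and 2.57-fold lower in iPSCs (log2 -1.36 ± 0.35, adjusted p = 0.00687) than in MEFs. In MEFs 27 and 29 of these reads lay after the TSS. Within 3000 bp on either side MEFs had 127 and 88 reads, pre-iPSCs 39 and 42, and iPSCs 35 and 41. The first call was lost without replicate 1 of MEFs (-1.55, adjusted p = 0.0568) and without replicate 1 of pre-iPSCs (-1.37, adjusted p = 0.119), and the second without replicate 1 of iPSCs (-1.06, adjusted p = 0.117). A window of 500 bp gave adjusted p = 0.104 and 0.0788, and DESeq2 gave 0.314 and 0.202. H3K27me3 at Fgf7 had 10 and 10 reads for MEFs, 27 and 14 for pre-iPSCs and 13 and 13 for iPSCs, and its difference of 1.07 ± 0.41 in pre-iPSCs was not called (adjusted p = 0.0911) and was 0.55 (adjusted p = 0.694) without replicate 1 of pre-iPSCs.

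**Figure D3:**
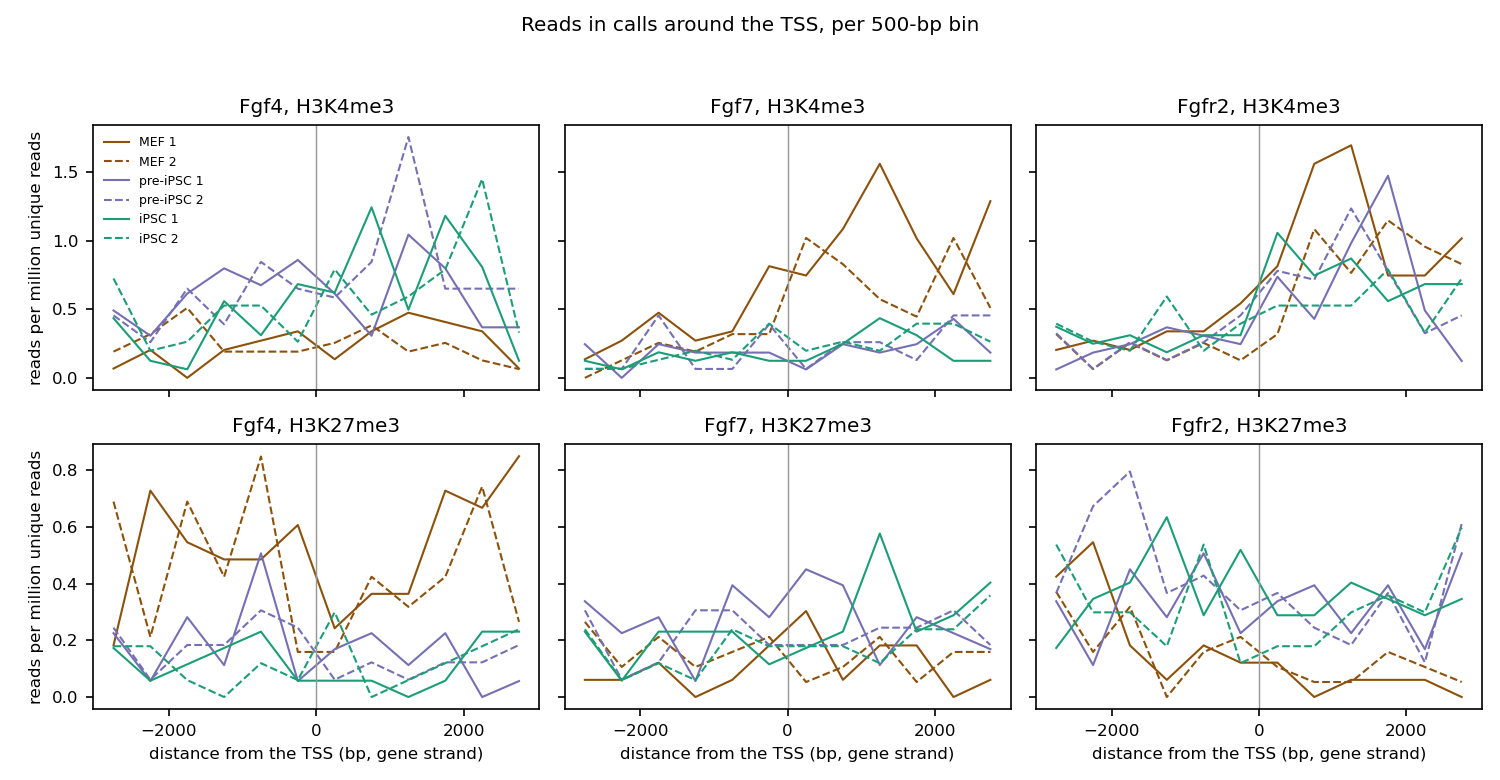
Reads in calls, scaled to the unique reads of each library, in 500-bp bins against the distance from the TSS on the gene's strand, for H3K4me3 (top) and H3K27me3 (bottom) at Fgf4, Fgf7 and Fgfr2. Solid lines are replicate 1 and dashed lines replicate 2 of MEFs (brown), pre-iPSCs (purple) and iPSCs (green). For Fgf4 H3K27me3 the MEF lines lie above the others in most bins, with 103 and 101 reads in all against 25 to 36 in the other 4 libraries.

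At Fgfr2 the only mark with a called difference was H3K27me3. Its reads were 7 and 10 for MEFs, 26 and 22 for pre-iPSCs and 24 and 17 for iPSCs, or 0.238 ± 0.0373, 0.702 ± 0.0418 and 0.599 ± 0.130 RPKM. Both MEF libraries were below the other 4. The mark was 2.89-fold higher in pre-iPSCs (log2 1.53 ± 0.40, adjusted p = 0.00843) and 2.39-fold higher in iPSCs (log2 1.26 ± 0.41, adjusted p = 0.0357) than in MEFs. The first call was lost without replicate 1 of MEFs (1.39, adjusted p = 0.0921), replicate 2 of MEFs (1.61, adjusted p = 0.0605) or replicate 1 of pre-iPSCs (1.43, adjusted p = 0.0908), with a 500-bp window (adjusted p = 0.337) and with DESeq2 (adjusted p = 0.311). The second was lost when any 1 of the 6 libraries was left out: 1.09 and 1.31 without replicate 1 and 2 of MEFs, 1.21 and 1.19 without those of pre-iPSCs, and 0.98 and 1.40 without those of iPSCs (adjusted p = 0.0531 to 0.323). Within 3000 bp on either side MEFs had 30 and 33 H3K27me3 reads, pre-iPSCs 70 and 79, and iPSCs 75 and 65. H3K4me3 at Fgfr2 had 48 and 28 reads for MEFs, 28 and 34 for pre-iPSCs and 39 and 25 for iPSCs. Most of these reads lay after the TSS, 35 and 22 of them in MEFs. Scaled to unique reads alone, H3K4me3 was 1.26 ± 0.519 RPKM for MEFs and 0.981 ± 0.174 for pre-iPSCs, with overlapping libraries. In the edgeR fit, which is scaled differently, it differed from MEFs by 0.04 ± 0.28 in pre-iPSCs (adjusted p = 0.958), where the RNA of Fgfr2 fell. Within 3000 bp on either side H3K4me3 reads numbered 125 and 98 for MEFs, 92 and 89 for pre-iPSCs and 102 and 83 for iPSCs. Both MEF totals were above both pre-iPSC totals, and a difference in that window was not tested.

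**Figure D4:**
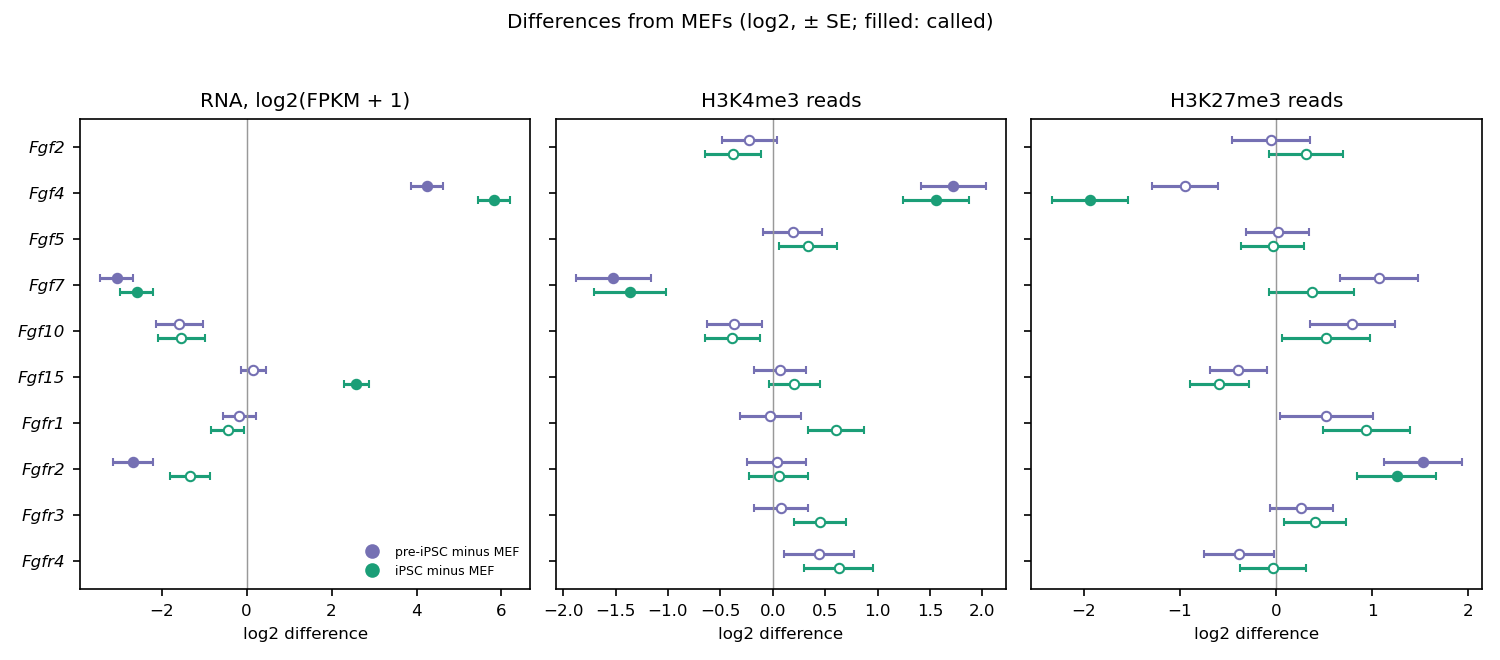
Log2 differences of pre-iPSCs (purple) and iPSCs (green) from MEFs with their SE, for RNA (6 tested genes), H3K4me3 and H3K27me3 (10 genes each). Filled circles were called. Fgf4 is the only gene with filled circles in all 3 panels, and the SEs of the marks range from 0.24 to 0.49.

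No mark of the other members was called in the fit reported. With a 2000-bp window a further member beside Fgf4 and Fgfr2 was called for H3K27me3 in pre-iPSCs against MEFs, where 9.5% of all promoters were called. Fgf15 had 51 and 43 H3K4me3 reads for MEFs, 45 and 34 for pre-iPSCs and 49 and 39 for iPSCs, so the mark lay at or above the 68.8th percentile of promoters in every library, also where the RNA was at 0. Its difference between pre-iPSCs and iPSCs was 0.14 ± 0.25 (95% interval -0.35 to 0.63), at the step where its RNA rose. H3K27me3 at Fgf15 was high in every library, with 28 and 40 reads for MEFs, 27 and 23 for pre-iPSCs and 25 and 20 for iPSCs (86.2nd to 98.3rd percentile), and differed by -0.59 ± 0.31 in iPSCs against MEFs (adjusted p = 0.215). Fgfr1 H3K4me3 had 49 and 39 reads for MEFs, 27 and 42 for pre-iPSCs and 77 and 32 for iPSCs. Its difference of 0.60 ± 0.27 in iPSCs against MEFs was not called (adjusted p = 0.122) and rested on replicate 1 of iPSCs, without which it was -0.06 (adjusted p = 0.941), while without replicate 2 it was 1.01 (adjusted p = 0.00896). Fgfr1 was among the lowest members for H3K27me3, with 6 and 9 reads for MEFs, 12 and 9 for pre-iPSCs and 12 and 17 for iPSCs, or 0.94 ± 0.46 in iPSCs against MEFs (adjusted p = 0.177).

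The other 5 members held 21 to 61 H3K4me3 reads per library. Fgf2 had 51 and 44 reads for MEFs, 30 and 35 for pre-iPSCs and 26 and 33 for iPSCs, Fgf10 45 and 61, 33 and 33, and 34 and 32. Fgf5 had 29 and 44, 33 and 34, and 38 and 37, and Fgfr3 49 and 35, 36 and 35, and 51 and 42. Fgfr4 had the fewest of these, 22 and 21 for MEFs, 26 and 21 for pre-iPSCs and 27 and 27 for iPSCs, between the 38.0th and 54.6th percentile of promoters. Their H3K4me3 differences from MEFs lay between -0.39 and 0.63 and none was called. Fgf5 and Fgfr3 held 19 to 27 and 17 to 29 H3K27me3 reads, at or above the 81.7th percentile of promoters in every library. Fgf2 held 10 to 18, Fgf10 7 to 23 and Fgfr4 14 to 27, and no H3K27me3 difference of these 5 genes was called in the fit reported.

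A mark was also scored as present above 1 RPKM within 500 bp of the TSS, with no test. On this score Fgf4 went from neither mark in both MEF libraries to H3K4me3 alone in the other 4, and Fgf7 from H3K4me3 alone in MEFs to neither mark. Fgf2 had H3K4me3 alone in all 6 libraries and Fgfr4 neither mark in 5 of 6. Both marks together were found once in the 60 combinations of gene and library, at Fgf15 in replicate 2 of MEFs, and H3K27me3 alone never. Over all promoters 0.437% to 0.903% had both marks, 0.908% to 2.56% H3K27me3 alone and 30.4% to 55.8% H3K4me3 alone, depending on the library. The members' counts for both marks and for H3K27me3 alone are near that background. H3K4me3 alone was found at 8 and 5 of the 10 members for MEFs (55.8% and 47.1% of all promoters), 6 and 6 for pre-iPSCs (40.2% and 30.4%) and 8 and 6 for iPSCs (44.3% and 32.1%). With RPKM scaled to reads in calls, 8 combinations had both marks, and with a limit of 2 RPKM 0 did. The share of all promoters was not computed at either of these settings. H3K27me3 below the limit does not enter the score. Within 1000 bp of the TSS the members' median H3K27me3 ranged from 0.424 to 0.591 RPKM over the libraries. The median of all promoters ranged from 0.182 to 0.259 RPKM.

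No H3 difference between the cell types was called at these promoters. Of 19560 promoters edgeR called 0.0% in each comparison, 105 to 373 had an unadjusted p under 0.05, and DESeq2 called 0. The members' differences lay between -0.80 and 1.00 with SEs of 0.35 to 0.75 and unadjusted p of at least 0.103. Replicate 1 of pre-iPSCs stood apart here too, with a median of 277 reads over the 10 members against 37.5 in replicate 2, and replicate 1 of iPSCs had 154 against 45. Fgf15 had 580 and 51 H3 reads in pre-iPSCs, 52 and 62 in MEFs and 189 and 47 in iPSCs. Fgf7 was the exception among the members, with 44 reads in replicate 1 and 59 in replicate 2 of pre-iPSCs. Without replicate 2 of pre-iPSCs, 2 members were called with edgeR: Fgf15 (1.501, adjusted p = 0.00499) and Fgf7 (-1.76, adjusted p = 0.0122) in pre-iPSCs against MEFs, and both in iPSCs against pre-iPSCs (-1.31, adjusted p = 0.0193, and 1.81, adjusted p = 0.0169). Of all 19598 promoters that setting called 4589 (23.4%) and 2146 in these comparisons, and its pre-iPSC values rest on the library that stood apart. The members held 6 to 11 H3 calls each per library, and the fuzziness of calls with at least 2 reads (the SD of the read positions) had a median over members of 28.4 and 30.7 bp in MEFs, 33.85 and 26.85 bp in pre-iPSCs and 34.85 and 31.2 bp in iPSCs, and the replicates of pre-iPSCs enclosed both MEF values.

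**Figure D5:**
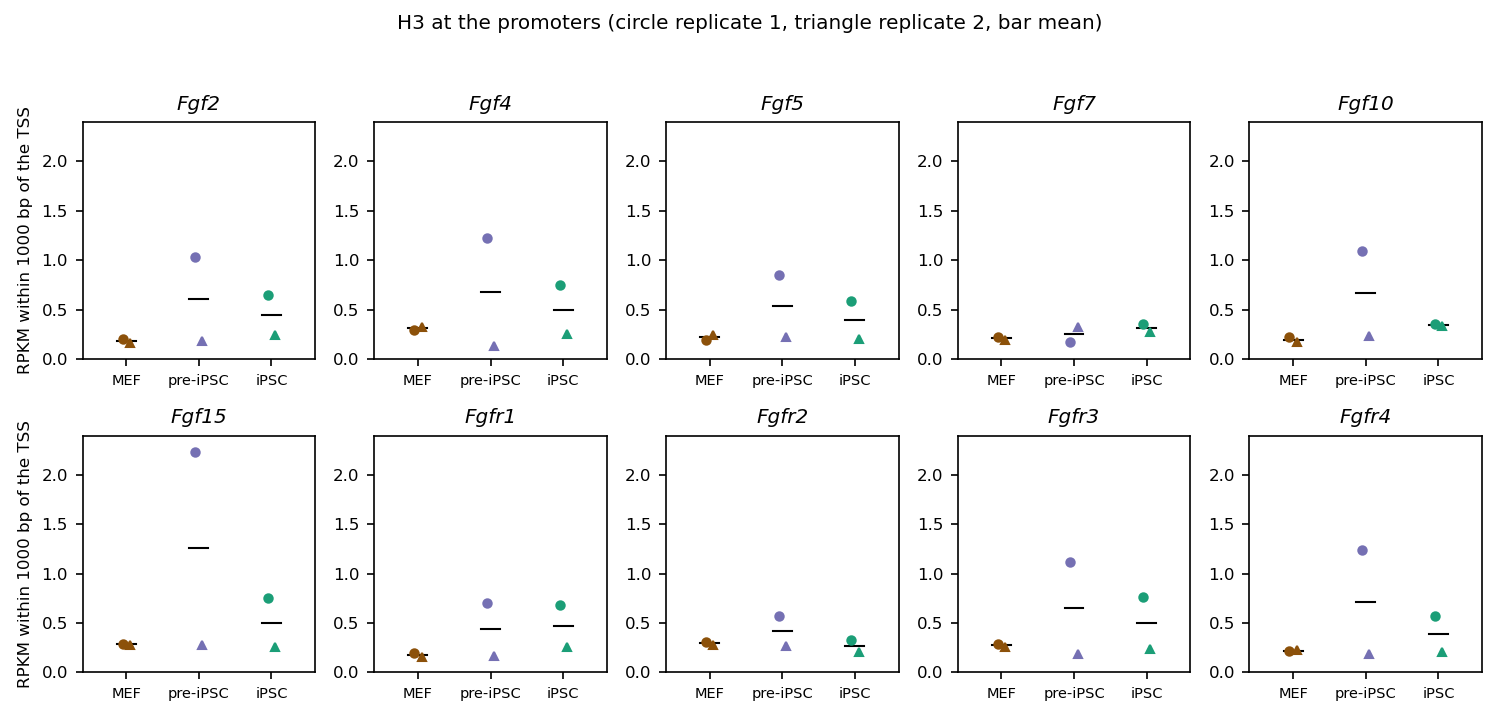
H3 in RPKM within 1000 bp of the TSS of each gene by cell type. Circles are replicate 1, triangles replicate 2 and bars the mean. Replicate 1 of pre-iPSCs lies far above replicate 2 at 9 of the 10 genes, and Fgf7 is the exception.

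H3K9me3 was sequenced once per cell type, so its values carry counting error only and no test. The members held 5 to 22 reads, or 0.164 to 0.722 RPKM, and 26 of the 30 values were above the median promoter of their library. Fgf4 had 22 reads in MEFs (0.722 RPKM, exact 95% Poisson interval 0.452 to 1.09, 98.1st percentile), 7 in pre-iPSCs (0.218, 0.0878 to 0.450) and 13 in iPSCs (0.430, 0.229 to 0.736). The intervals of MEFs and pre-iPSCs did not overlap, by a small margin. Fgf15 had 7 reads in MEFs (0.230 RPKM, 0.0923 to 0.473), 20 in pre-iPSCs (0.624, 0.381 to 0.963) and 15 in iPSCs (0.496, 0.278 to 0.819). Fgf2 had 5 reads (MEFs), 19 (pre-iPSCs) and 12 (iPSCs), and Fgf10 had 8, 18 and 7. The other 6 members held 7 to 15 reads, with Fgf7 at 8, 8 and 9.

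The rest of the pathway was read from 4 lists. Their counts stand beside 16.4%, 8.62% and 25.9% of all tested genes changed in pre-iPSCs against MEFs, iPSCs against pre-iPSCs and iPSCs against MEFs, and their medians beside all-gene medians of -0.04, -0.09 and -0.14, with no test of a list. Of 16 other FGF ligands 6 were tested. In pre-iPSCs against MEFs 1 rose and 1 fell, in iPSCs against pre-iPSCs 1 rose, and in iPSCs against MEFs 2 rose and 1 fell. Fgf17, of the Fgf8 subfamily, had 0.125 and 0 FPKM for MEFs, 0.505 and 0.450 for pre-iPSCs and 3.19 and 5.11 for iPSCs, and rose by 1.78 ± 0.33 from pre-iPSCs to iPSCs (adjusted p = 0.0190). Fgf8 was at 0 in MEFs and pre-iPSCs and at 0.796 and 6.07 FPKM in iPSCs, and was called against MEFs (adjusted p = 0.0347). With values at or near 0 the sizes of Fgf17 and Fgf8 depend on the pseudocount. The median differences of the 6 were 0.24, 0.52 and 0.80. Fgf1, the acidic FGF that binds all receptors, had 0.101 and 0.117 FPKM for MEFs, 13.2 and 2.35 for pre-iPSCs and 0.878 and 0.774 for iPSCs. It rose by 2.64 ± 0.54 in pre-iPSCs against MEFs (adjusted p = 0.0168), a size that depends on the pseudocount since MEFs were near 0. Fgf13, an intracellular FGF homologue that binds sodium channels, fell by 1.81 ± 0.34 at that step (adjusted p = 0.0123).

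Of 21 co-receptors and binding proteins 18 were tested. In pre-iPSCs against MEFs 1 rose and 3 fell, in iPSCs against pre-iPSCs 1 rose and 4 fell, and in iPSCs against MEFs 1 rose and 10 fell, where 10.3% of all genes rose and 15.5% fell. The median differences were -0.81, -0.99 and -1.51. Fgfbp1, a carrier that releases FGFs from the matrix, had 0 and 0.0746 FPKM for MEFs, 110 and 203 for pre-iPSCs and 4.33 and 13.4 for iPSCs, and it rose by 7.18 ± 0.42 (adjusted p = 0.000373, a size that depends on the pseudocount since MEFs were near 0) and then fell by 4.10 ± 0.42 (adjusted p = 0.00238). The heparan sulfate proteoglycan Sdc2 had 51.4 and 81.8 FPKM for MEFs, 18.6 and 17.3 for pre-iPSCs and 5.72 and 5.69 for iPSCs and fell at both steps. Sdc3 fell from MEFs to pre-iPSCs by 3.12 ± 0.48 (adjusted p = 0.00656). Gpc3, a glypican, had 8.47 and 18.3 FPKM for MEFs, 1.13 and 1.75 for pre-iPSCs and 17.9 and 26.0 for iPSCs, and like Fgfr2 it was lowest in pre-iPSCs.

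Of 20 signal relay genes 19 were tested. Of these 1 fell in pre-iPSCs against MEFs, 1 rose in iPSCs against pre-iPSCs, and 1 rose and 1 fell in iPSCs against MEFs. Their medians were -0.26, -0.09 and -0.39. Gab1, the docking protein that links Frs2 to PI3 kinase, had 3.47 and 2.65 FPKM for MEFs, 5.71 and 3.38 for pre-iPSCs and 58.9 and 29.1 for iPSCs, and rose by 2.97 ± 0.37 from pre-iPSCs to iPSCs (adjusted p = 0.00454). Ptpn11, the phosphatase Shp2, fell by 1.60 ± 0.36 in iPSCs against MEFs (adjusted p = 0.0171), and Map2k1, the kinase Mek1, fell by 1.22 ± 0.33 in pre-iPSCs against MEFs (adjusted p = 0.0447).

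Of 21 targets and feedback inhibitors 20 were tested. In pre-iPSCs against MEFs 5 rose and 2 fell, in iPSCs against pre-iPSCs 2 fell, and in iPSCs against MEFs 2 rose and 3 fell, with median differences of 0.87, -0.92 and -0.27. Etv5, an ETS factor of the FGF response, had 9.35 and 5.48 FPKM for MEFs, 123 and 79.1 for pre-iPSCs and 43.3 and 46.4 for iPSCs, and rose by 3.60 ± 0.36 in pre-iPSCs (adjusted p = 0.00169). The phosphatase gene Dusp14 had 19.6 and 14.1 FPKM for MEFs, 110 and 181 for pre-iPSCs and 5.89 and 5.31 for iPSCs. It rose by 3.01 ± 0.40 in pre-iPSCs (adjusted p = 0.00372) and then fell by 4.43 ± 0.40 (adjusted p = 0.00160). The immediate early gene Fos had 20.9 and 2.82 FPKM for MEFs, 185 and 107 for pre-iPSCs and 67.7 and 71.0 for iPSCs, and rose by 3.96 ± 0.59 in pre-iPSCs (adjusted p = 0.00564). Myc had 57.8 and 36.3 FPKM for MEFs, 337 and 816 for pre-iPSCs and 9.85 and 7.34 for iPSCs. It is one of the factors delivered by retrovirus, and its FPKM do not separate the transgene from the endogenous gene. Myc is counted among the 5 genes that rose in pre-iPSCs and among the 2 and 3 that fell in iPSCs.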

How the data were processed

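Mononucleosomes (H3, H3K4me3, H3K27me3, H3K9me3) and RNA were sequenced in 27 libraries. According to the methods and the submitters' processing notes, the authors mapped chromatin reads to mm9 with Bowtie 1.0.1, kept unique reads, shifted them by 73 bp and called nucleosomes per library with GeneTrack. The deposited calls are 146 bp wide and give a read count and a fuzziness score (the SD of read positions in bp). Reads outside calls were not analysed here. The authors made the deposited FPKM with TopHat2 2.0.4 and Cufflinks 2.0.2, 1 table per replicate, each normalized on its own. The members and gene lists were chosen with earlier results of these data known.

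Genes whose mean reached 0.5 FPKM were tested on log2(FPKM + 1) with limma 3.58.1 in R 4.3.3, with the table as a term. Counts of calls centred within 1000 bp of the TSS were tested with edgeR 4.0.16 (quasi-likelihood, filterByExpr, TMM). Adjusted p-values are Benjamini-Hochberg values. RPKM were scaled to the unique reads per library that the study states. The study calls its replicates biological, and the sources used here do not say which clone or culture gave each library. Intervals of H3K9me3 are exact Poisson intervals and cover counting error only. The limma and edgeR fits were run on simulated RNA values and simulated H3, H3K4me3 and H3K27me3 reads with planted changes, for pre-iPSCs against MEFs only. Alternatives were other pseudocounts, filters, windows, scalings, DESeq2 1.42.0, the replicate block and leaving out each library. All 10 members were named, as were the 3 genes most like each tested member and, of each list, up to 4 genes called in the most comparisons. Promoter sequences and motifs come from mm9.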

Additional observations from a re-analysis of the deposited data

How the results depend on the processing

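The number of members called in a comparison moved as follows. For RNA in iPSCs against pre-iPSCs (2 in the fit reported, with 8.62% of all genes called) it was 1 with a pseudocount of 0.1 (8.83%) and 1 with no filter (4.65%). It also moved when 1 library was left out. With no filter 16963 genes were tested in place of 12401. For RNA in pre-iPSCs against MEFs (3, with 16.4% of all genes called) it was 2 with no filter (7.33%). It moved with 1 library left out, as did the number in iPSCs against MEFs (3). For H3 (0) it moved when replicate 2 of pre-iPSCs was left out, in pre-iPSCs against MEFs and in iPSCs against pre-iPSCs. For H3K4me3 (2) it was 1 with a 500-bp window (1.86% and 6.04% of all promoters called) and 0 with DESeq2 (0.175% and 0.672%) in both comparisons with MEFs. In both it also moved with 1 library left out. For H3K27me3 in pre-iPSCs against MEFs (1) it was 0 with 500 bp (2.32% of all promoters), 3 with 2000 bp (9.5%) and 0 with DESeq2 (0.432%), and it moved with 1 library left out. In iPSCs against MEFs (2) it was 0 with 500 bp (3.94%, with Fgf4 not tested), 1 with calls of at least 2 reads (7.81%), 0 with DESeq2 (0.183%) and 1 with no filter (6.08%), and it moved with each library left out. Combinations of gene and library with both marks numbered 0 at 2 RPKM and 8 scaled to reads in calls, against 1. No share over all promoters was computed at the first of these settings or the second. Fgfr1 changed sign 7 times. Its RNA difference in pre-iPSCs against MEFs was 0.0198 with quantile normalization, and -0.66 to 0.32 with 1 library left out (0.32 without MEF replicate 1, 0.11 without pre-iPSC replicate 1). In iPSCs against pre-iPSCs that range was -0.56 to 0.0051 (highest without pre-iPSC replicate 2), and in iPSCs against MEFs -0.93 to 0.0413 (highest without MEF replicate 1). Its H3K4me3 difference in iPSCs was -0.0304 to 1.07 against pre-iPSCs and -0.0587 to 1.01 against MEFs, lowest without iPSC replicate 1 in both. The cause of these changes was not tested. Same-numbered libraries did not deviate together in every pair (correlations of -0.205 to 0.346 for RNA, -0.0309 to 0.795 for H3, -0.0433 to 0.115 for H3K4me3 and -0.0473 to 0.0575 for H3K27me3). The 0.795 belongs to H3 in pre-iPSCs and iPSCs, and the H3 fit reported has no block. A replicate block left H3 calls at 0 in each comparison. With edgeR, unadjusted p under 0.05 then numbered 822 (pre-iPSCs against MEFs), 151 (iPSCs against pre-iPSCs) and 596 (iPSCs against MEFs), against 373, 105 and 296. With the replicate block H3K4me3 calls over all promoters were 586 higher and 164 lower in pre-iPSCs, 1770 and 745 in iPSCs against MEFs and 6 and 4 between them, and H3K27me3 calls 475 and 293, 710 and 363, and 35 and 7. Without the block RNA calls were 905 higher and 1092 lower for pre-iPSCs against MEFs, 528 and 596 for the step to iPSCs, and 1185 and 1819 for iPSCs against MEFs. With 2 libraries per group and often under 50 reads per promoter and mark, small differences may have gone undetected.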
